A study of Mus musculus with 6 samples.

Results

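Mamdc2, Galnt9, Eef1a2, Rnf128 and Prss23 were examined as genes that fell in MSR1 KO macrophages, together with Eef1a1, the paralogue of Eef1a2. These 6 genes were taken by symbol from a table of 52550 genes, and each symbol matched a gene with counts. The first 5 were selected on their measured counts, as genes with a clear fall in every MSR1 KO library and no shared pathway, and no cutoff was given. Their falls are therefore described without a test. Eef1a1 was taken as a paralogue, so its difference between the genotypes was tested.

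RNA-seq had been done on bone marrow-derived macrophages (BMDMs) from MSR1 KO mice, which lack the scavenger receptor MSR1 in every cell of the body, and from MSR1 WT mice, both on the C57BL/6 background. Marrow cells were grown for 7 days with 25 ng/ml M-CSF, the growth factor of macrophages, and then shared medium for 48 h with bone marrow mesenchymal stem cells (BMSCs), the stromal cells that give rise to osteoblasts. Each genotype had 3 libraries, all from BMDMs kept with BMSCs, and the age and sex of the mice were not given in the sources used here. The paper calls the libraries biological replicates, but the labels do not tie them to single mice, so p-values measure the spread between these libraries, which may be technical.

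Library totals were 36143518 to 47417448 counts, and levels are given as CPM, counts relative to the TMM-scaled library total. The genotypes are called KO and WT from here on. Macrophage markers such as Csf1r and Lyz2 summed to 24400 to 27100 CPM in the WT and 24500 to 25600 CPM in the KO libraries. Lyz2 alone had a mean of 14900 CPM in WT and 13400 CPM in KO libraries, so the sum says little about the other markers. Msr1 itself had 1825 to 2118 counts in the KO and 7543 to 9219 counts in the WT libraries, a level in KO of 24.7% of that in WT. Reads on the targeted gene were thus fewer but not absent, and the table does not show which exons they came from.

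The 5 fallen genes belong to different parts of cell biology. Mamdc2 encodes a secreted protein of MAM domains, modules that many adhesion and matrix proteins carry. Galnt9 encodes a Golgi enzyme that attaches the initial GalNAc sugar of mucin-type O-glycans to serine or threonine, and it is best known from the brain. Eef1a2 and Eef1a1 encode the alpha subunit of elongation factor 1, a GTPase that brings aminoacyl-tRNA to the ribosome. Most cells use Eef1a1, while mature neurons, heart and skeletal muscle use Eef1a2. Rnf128 encodes GRAIL, a ubiquitin ligase of endosomal membranes with a protease-associated (PA) domain in the lumen and a RING domain in the cytosol, known for its part in T cell anergy. Prss23 encodes a secreted serine protease whose closest relative is Prss35.

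The start of the coding sequence is shown for Eef1a2 and Eef1a1 because their counts can be compared only if reads tell them apart. The bases are the first 90 coding bases on GRCm38 (GENCODE M21), taken from transcripts on the minus strand of both chromosomes. For Eef1a1 they lie in chr9:78480565-78480654 and for Eef1a2 in chr2:181155317-181155406, and capitals mark the 15 positions at which the genes differ.
Eef1a1: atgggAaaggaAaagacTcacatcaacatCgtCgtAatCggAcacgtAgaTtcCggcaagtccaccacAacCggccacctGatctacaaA
Eef1a2: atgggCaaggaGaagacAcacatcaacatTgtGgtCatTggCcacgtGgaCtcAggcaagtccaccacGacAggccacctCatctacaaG
Over the whole coding sequence, 1110 of 1386 aligned bases were identical (80.1%), and the longest identical run was 23 bases. No stretch of 75 bases in the annotated transcripts of Eef1a2 occurred in those of another gene. The same held for Mamdc2, Galnt9 and Rnf128. Eef1a1 shared 717 of 2694 such stretches (26.6%) with 14 other genes. Of these, 9 were matched to the table, and their counts came to 2.45% to 3.11% of the Eef1a1 count in each library, while the other 5 were not analysed here.

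Promoter windows are shown for Galnt9, Eef1a2 and Rnf128, as fallen genes whose windows differ in base composition. Each window, from RefSeq on GRCm38.p6, runs 5′ to 3′ on the strand of the gene, from 250 bases before to 50 bases after a start site. Capitals mark a motif match where there was one. The window of Galnt9 is chr5:110544105-110544404 on the plus strand, that of Eef1a2 chr2:181156966-181157265 on the minus strand, and that of Rnf128 chrX:139610370-139610669 on the plus strand.
Galnt9: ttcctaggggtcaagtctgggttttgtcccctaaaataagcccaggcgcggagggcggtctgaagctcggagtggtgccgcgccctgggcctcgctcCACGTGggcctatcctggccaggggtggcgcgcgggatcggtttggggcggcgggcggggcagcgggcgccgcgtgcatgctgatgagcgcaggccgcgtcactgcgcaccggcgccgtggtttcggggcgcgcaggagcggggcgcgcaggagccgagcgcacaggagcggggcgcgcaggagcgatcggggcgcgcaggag
Eef1a2: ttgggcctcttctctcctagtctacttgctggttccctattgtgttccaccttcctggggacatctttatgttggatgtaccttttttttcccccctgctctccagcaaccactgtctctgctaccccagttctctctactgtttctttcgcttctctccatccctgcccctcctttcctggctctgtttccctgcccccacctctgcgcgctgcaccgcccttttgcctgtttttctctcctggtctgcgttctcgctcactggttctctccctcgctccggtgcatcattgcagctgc
Rnf128: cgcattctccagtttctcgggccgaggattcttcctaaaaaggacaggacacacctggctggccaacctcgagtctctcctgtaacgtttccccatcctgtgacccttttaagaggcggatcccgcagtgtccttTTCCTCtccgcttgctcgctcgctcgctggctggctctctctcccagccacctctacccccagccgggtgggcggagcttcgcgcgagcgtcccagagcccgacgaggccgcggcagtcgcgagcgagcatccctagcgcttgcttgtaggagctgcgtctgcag
The Galnt9 window had 41 CpG dinucleotides and the Rnf128 window 26, whereas the Eef1a2 window had 8, near the median of 7 over all 32851 windows. The windows of Eef1a1 and Prss23 had 22 and 7. The Rnf128 window lies 47304 bases downstream of the 5′ end of the annotated gene and that of Eef1a1 lies 7427 bases downstream of it, at other start sites. Mamdc2 had no window in the table.

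The set held 7 windows for Prss23 and 2 for Galnt9, of which a single one was used for each gene, and the others were not searched. Both strands of the 5 windows were searched for 6 motifs. They were TGANTCA, which AP-1 factors bind, TCAAAG of the TCF and LEF factors, and GAGGAA, the core bound by PU.1 in macrophages. The search also took TATAAA, the letters of the TATA box, then CCAAT, which NF-Y binds, and CACGTG, an E-box. A match is a description of letters, not a binding site. The Galnt9 window held CACGTG from -153 to -148 relative to the start site, as did 7.15% of all windows. The Rnf128 window held TTCCTC, the PU.1 letters on the other strand, from -115 to -110, and 28.3% of all windows held them. The searched windows of Eef1a2, Eef1a1 and Prss23 held no match. No motif was shared by the searched windows of the fallen genes, which leaves the other start sites of Prss23 and Galnt9 open. The shares over all windows of the motifs with no match were 7.81% for AP-1, 16.0% for TCF/LEF, 13.6% for the TATA box and 37.4% for the CCAAT box.

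Mamdc2, Galnt9 and Eef1a2 fell to 8.53%, 9.31% and 11.1% of their mean level in WT libraries, and Rnf128 and Prss23 to 43.3% and 51.1%. In bulk RNA, fewer cells of a type and less RNA per cell cannot be told apart. For all 5 genes the KO libraries lay below the lowest WT library. That held for 13.4% of all 16402 tested genes, and here it follows from the choice of genes. For genes that were not selected for their fall, a DEG was defined by an unadjusted p under 0.05 and a change of more than 1.5-fold. Of all tested genes 5.05% were lower and 3.59% higher DEGs. Whatever their fold change, 10.2% were lower and 8.65% higher at an unadjusted p under 0.05. With adjustment, 2.66% passed 0.05 as lower genes.

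Mamdc2 (ENSMUSG00000033207.6) lies on the minus strand at chr19:23302609-23448322. It had 94, 127 and 189 counts in KO against 1601, 1332 and 2020 counts in WT libraries. In CPM these were 2.62, 3.19 and 4.06 against 38.8, 28.1 and 48.9. The groups were far apart, and the highest KO library reached 14.5% of the lowest WT library. The mean was 3.29 ± 0.73 CPM (SD, n = 3) in KO and 38.6 ± 10.4 CPM (SD, n = 3) in WT libraries, an 11.7-fold fall and a log2 fold change of -3.54 (standard error, SE, 0.244). Within WT the libraries spread over a 1.74-fold range, so the size of the fall is known less closely than its direction.

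Galnt9 (ENSMUSG00000033316.14) lies on the plus strand at chr5:110544355-110621380. It had 4, 15 and 6 counts in KO against 77, 86 and 122 counts in WT libraries. Few reads stood behind the KO values, and the 4 counts of KO replicate 1 have a 95% exact Poisson interval of 1.09 to 10.2 counts, which covers counting error only. The levels were 0.111, 0.377 and 0.129 CPM in KO and 1.87, 1.81 and 2.95 CPM in WT libraries. KO replicate 2 stood above the other two, at 20.8% of the lowest WT library. The mean fell from 2.21 ± 0.643 to 0.206 ± 0.148 CPM (SD, n = 3 each), 10.7-fold, with a log2 fold change of -3.41 (SE 0.51). This was the widest SE of the 6 genes, and the log2 fold change was -4.16 without KO replicate 2.

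Eef1a2 (ENSMUSG00000016349.10) lies on the minus strand at chr2:181147653-181157014. It had 12, 34 and 34 counts in KO against 250, 224 and 266 counts in WT libraries. These came to 0.334, 0.854 and 0.731 CPM against 6.06, 4.72 and 6.44 CPM. KO replicate 1 was the lowest, and the highest KO library was at 18.1% of the lowest WT library. The mean fell 8.97-fold, from 5.74 ± 0.903 to 0.64 ± 0.272 CPM (SD, n = 3 each). On the log2 scale the change was -3.15 (SE 0.335).

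Rnf128 (ENSMUSG00000031438.11) lies on the plus strand at chrX:139563316-139673145. It had 1800, 1786 and 2641 counts in KO against 4677, 5448 and 5050 counts in WT libraries. After scaling, the libraries of a genotype were close to each other, with 50.1, 44.8 and 56.8 CPM against 113, 115 and 122 CPM. The mean fell 2.31-fold, from 117 ± 4.73 to 50.6 ± 5.99 CPM (SD, n = 3 each). On the log2 scale the change was -1.21 (SE 0.0983).

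Prss23 (ENSMUSG00000039405.7) lies on the minus strand at chr7:89507783-89527187. It had 843, 1080 and 1196 counts in KO against 2116, 2314 and 2034 counts in WT libraries. Its levels varied least, at 23.5, 27.1 and 25.7 CPM against 51.3, 48.7 and 49.2 CPM. The mean fell 1.96-fold, from 49.7 ± 1.36 to 25.4 ± 1.85 CPM (SD, n = 3 each). On the log2 scale the change was -0.97 (SE 0.0847).

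**Figure D1:**
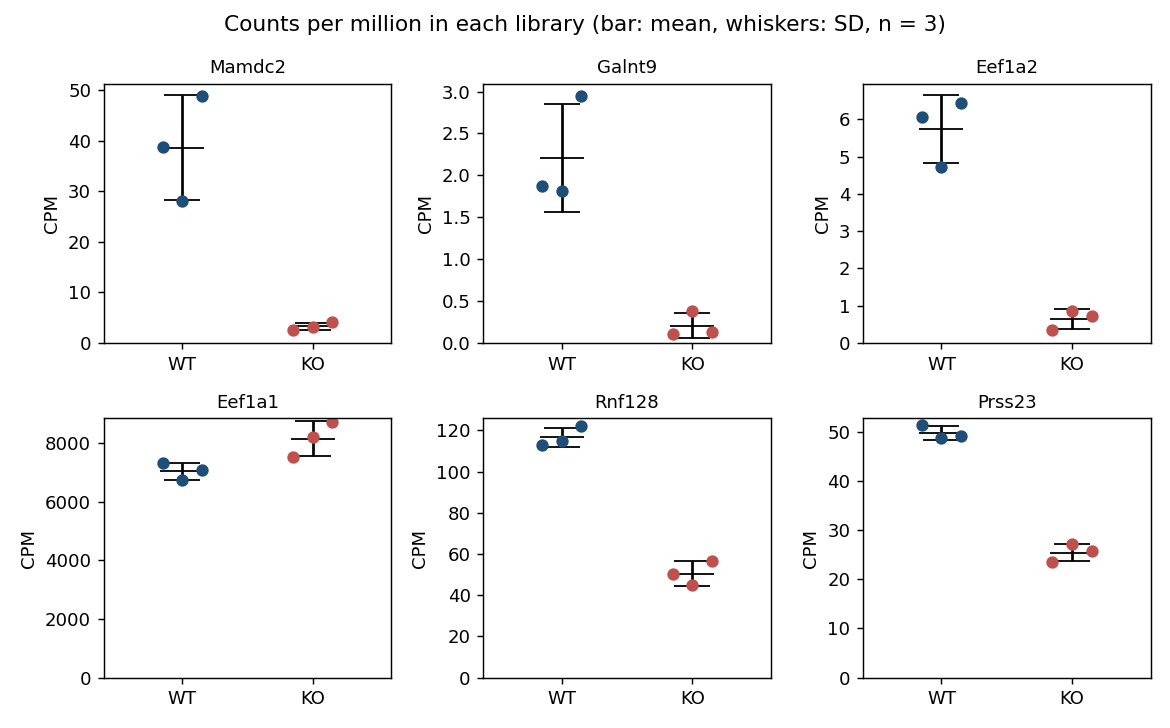
CPM of the 6 genes in each of the 3 WT (blue) and 3 KO (red) libraries, each panel with its own linear axis from 0, a bar at the mean and whiskers of 1 SD. The fallen genes do not overlap between genotypes, whereas the levels of Eef1a1 lie close together, at 6730 to 7310 CPM in WT and 7510 to 8700 CPM in KO libraries.

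Not all 5 were among the steepest falls of the table. Among 1962 genes whose mean reached 1 CPM and whose KO libraries all lay below the WT libraries, Mamdc2 had the fall of rank 3, Galnt9 of rank 4 and Eef1a2 of rank 6. Hpgd (-5.90), Ugt1a6b (-5.27) and Stac2 (-3.31 on the log2 scale) made up the rest of the first 6. Rnf128 had rank 102 and Prss23 rank 216. Among all 16402 tested genes the ranks of Mamdc2, Galnt9, Eef1a2, Rnf128 and Prss23 were 12, 15, 17, 318 and 557. The last 2 genes were marked by libraries that lay close together within a genotype. Their coefficients of variation in WT were 4.05% and 2.73%, against 27.0% for Mamdc2.

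**Figure D2:**
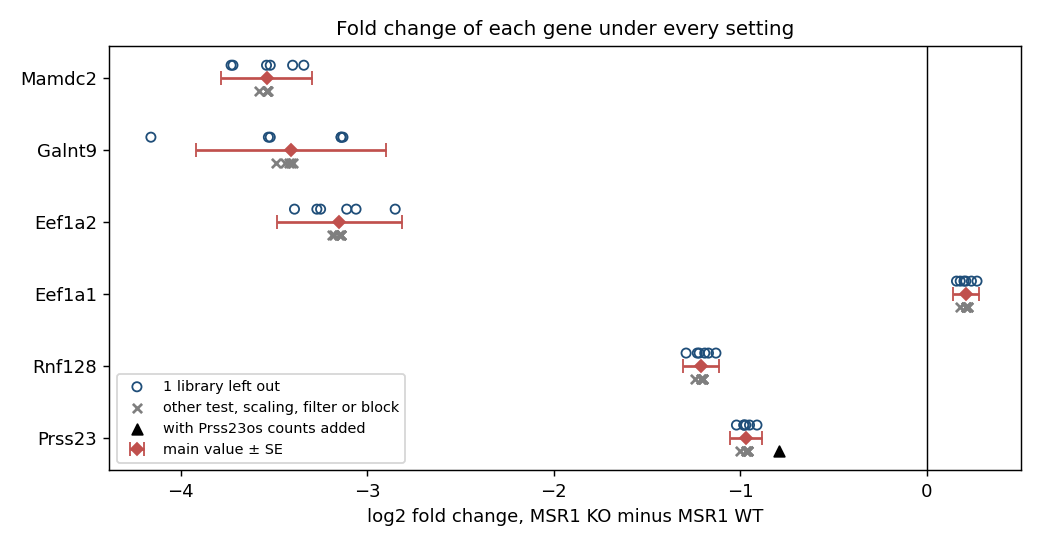
Log2 fold change (KO minus WT) of each gene, with the main value and its SE (red), the values with 1 library left out (circles), those under other tests, scalings, filters or the replicate block (crosses), and Prss23 with the Prss23os counts added (triangle). Each fallen gene stays below 0, Galnt9 moves most, from -4.16 to -3.13, and Eef1a1 stays between 0.16 and 0.27.

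Levels of different genes were compared per kb of exon sequence. In WT libraries the order was Eef1a1 at 2820 ± 117 CPM per kb, Rnf128 at 33.7 ± 1.36, Prss23 at 13.2 ± 0.366, Mamdc2 at 11.2 ± 3.01, Eef1a2 at 2.75 ± 0.434 and Galnt9 at 0.735 ± 0.213 CPM per kb (SD, n = 3 each). Prss23 and Mamdc2 did not differ beyond their spread, although with the longest transcript as length their WT libraries did not overlap, at 15.1 to 15.9 and 8.23 to 14.3 CPM per kb. Mamdc2 and Prss23 were separated in KO libraries, where Prss23 had 6.75 ± 0.482 and Mamdc2 0.951 ± 0.21 CPM per kb (SD, n = 3 each). In KO libraries Rnf128 had 14.6 ± 1.74, Eef1a2 0.307 ± 0.13 and Galnt9 0.0684 ± 0.0495 CPM per kb (SD, n = 3 each). Among the 16368 tested genes with a length, 74.5% lay below Mamdc2 in WT libraries and 26.3% did so in KO libraries. For Rnf128 these shares of lower genes were 91.6% and 79.7%. For Galnt9 they were 22.5% and 2.42%, so this gene was at the low end of the tested genes in both genotypes.

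Eef1a1 (ENSMUSG00000037742.14, chr9:78478449-78489151 on the minus strand) did not share the fall of its paralogue. It had 269929, 326774 and 404645 counts in KO against 301507, 319261 and 292044 counts in WT libraries. After scaling, each KO library lay above each WT library, with means of 8140 ± 598 and 7030 ± 293 CPM (SD, n = 3 each). Its log2 fold change of 0.21 (SE 0.0712) had an adjusted p = 0.15 in edgeR's quasi-likelihood test, so it did not pass the adjustment, and was under the fold change of a DEG. Under the alternatives the adjusted p was 0.11 to 0.38. Its level per kb was of rank 9 among the 16368 genes in both genotypes. Reads on Eef1a1 made up 0.805 ± 0.0536% of the library in KO and 0.711 ± 0.0251% in WT (SD, n = 3 each; two-sided exact permutation p = 0.1, the lowest possible with 3 against 3 libraries).

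The pair was also compared within each library, where scaling cancels. For every 100000 Eef1a1 reads there were 82.9, 70.2 and 91.1 Eef1a2 reads in the WT libraries. The KO libraries had 4.45, 10.4 and 8.4. Eef1a2 was therefore a minor form in both genotypes, and its ratio to Eef1a1 was 81.4 ± 10.5 against 7.75 ± 3.03 (SD, n = 3 each), 10.5-fold apart. No other gene of translation elongation was called. Of 15 tested genes of this list besides Eef1a2, 0 were lower and 0 higher DEGs in edgeR's test and in DESeq2's, and at an unadjusted p under 0.05 there were 0 lower and 2 higher, against 10.2% and 8.65% of all tested genes. Without WT replicate 3, 1 was a higher DEG. Their median log2 fold change was 0.07, where the median of all tested genes was -0.00231. Eef2, the factor that moves the ribosome along the mRNA and the next most abundant of the list in CPM, had a log2 fold change of 0.10 (SE 0.0672, edgeR adjusted p = 0.47).

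Galnt9 was a minor member of its family, of rank 10 per kb among 19 GalNAc-transferase genes in WT and of rank 11 in KO libraries. Galnt2 and Galnt1, which start O-glycans in most tissues, led with 50.2 and 25.7 CPM per kb in WT libraries. Their log2 fold changes were 0.21 (SE 0.0758) and 0.19 (SE 0.086), with adjusted p-values of 0.17 and 0.28 in edgeR's test. Of 13 tested genes of the family besides Galnt9, 0 were lower and 0 higher DEGs in edgeR's test and in DESeq2's, and 2 lower and 1 higher had an unadjusted p under 0.05, where 10.2% and 8.65% of all tested genes did. Their median was -0.03 on the log2 scale, and 1 was a lower DEG without KO replicate 3, WT replicate 1 or WT replicate 3. Galnt6 came nearest with -0.58 (adjusted p = 0.034 in edgeR's test), just under the fold change of a DEG, and was named after its value was seen.

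Of the enzymes that extend the initial sugar, 11 were tested. Of these, 0 were lower and 2 were higher DEGs, beside 5.05% and 3.59% of all tested genes, with a median log2 fold change of -0.06. St6galnac3, a sialyltransferase, had 43, 52 and 52 counts in the KO and 24, 19 and 35 in the WT libraries, a log2 fold change of 0.99 (edgeR adjusted p = 0.21). B3gnt6, which builds core 3 O-glycans, had 9, 16 and 13 counts against 6, 0 and 0, so its log2 fold change of 2.65 (SE 1.1) rests on few reads. Neither passed the adjustment over all genes, and with any 1 library left out 0 or 1 gene of the list was a higher DEG. St3gal1 and St6galnac4, the most abundant of the list in CPM, stood at -0.21 and 0.00 (edgeR adjusted p = 0.27 and 1).

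Rnf128 was one of the better expressed PA-RING ligases, of rank 3 per kb among 12 in both genotypes, though in KO libraries its 14.6 ± 1.74 CPM per kb (SD, n = 3) was not separated from the 14.5 CPM per kb of Rnf150. Of the 8 other tested ligases of this build, 0 were lower and 0 higher DEGs in edgeR's test and in DESeq2's, and none had an unadjusted p under 0.05 in edgeR. Their median was -0.04 on the log2 scale, with Rnf130 at 0.04 (SE 0.0983) and Rnf150 at -0.12 (SE 0.0786). Among 12 tested partners of GRAIL and other anergy genes, 1 was a lower and 1 a higher DEG, beside 5.05% and 3.59% of all tested genes. At an unadjusted p under 0.05 in edgeR, 2 were lower and 3 higher, beside 10.2% and 8.65% of all tested genes. The median of the list was 0.04. Cd81, a tetraspanin that GRAIL is known to ubiquitinate, had 1597, 1857 and 2102 counts in the KO and 3279, 3601 and 2409 in the WT libraries, a log2 fold change of -0.65 (SE 0.118, edgeR adjusted p = 0.027). Without WT replicate 1 no gene of the list was a lower DEG. Cd151, another tetraspanin, stood at -0.34 (SE 0.0732, edgeR adjusted p = 0.039) and Cd83, a surface protein that GRAIL is also known to target, at 0.55 (SE 0.106, edgeR adjusted p = 0.030), both under the fold change of a DEG and named after their values were seen. Egr3, a transcription factor of T cell anergy, was higher by 0.82 on the log2 scale (SE 0.311), with an adjusted p of 0.20 in edgeR, and the list had 0 higher DEGs without KO replicate 2, KO replicate 3 or WT replicate 1 and 2 without WT replicate 3. Arhgdia and Arhgdib, whose proteins bind GRAIL, were the most abundant in CPM, at -0.37 and 0.03 (edgeR adjusted p = 0.61 and 0.93), and KO replicate 1 stood apart for Arhgdia, with 9147 counts where the other libraries had 28349 to 35698.

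Prss23 was of rank 2 per kb among 23 secreted serine protease genes in WT libraries and of rank 4 in KO libraries. Of 12 other tested proteases, 2 were lower and 1 was a higher DEG, beside 5.05% and 3.59% of all tested genes. Their median log2 fold change was -0.10. Htra4 (-1.37, SE 0.522) and Htra3 (-0.71, SE 0.21), of the HtrA family, were the lower ones and Prss34, a mast cell and basophil protease, the higher one (0.71, SE 0.213). Their adjusted p-values in edgeR were 0.20, 0.10 and 0.11, and Htra4 had at most 23 counts in a library. Leaving out any library but KO replicate 2 gave 1 lower DEG, and leaving out WT replicate 2 gave 0 higher DEGs. Plau, the urokinase plasminogen activator and the most abundant of the list in CPM, stood at -0.53 (edgeR adjusted p = 0.075), and Htra1 at -0.22 (edgeR adjusted p = 0.32). Prss35, the nearest relative of Prss23 and named for that, stood at 0.12 (SE 0.386).

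Of 10 tested serine protease inhibitors, 2 were lower and 2 higher DEGs, beside 5.05% and 3.59% of all tested genes. Their median log2 fold change was -0.22. Serping1, the inhibitor of complement C1, fell by 1.29 on the log2 scale (SE 0.196, edgeR adjusted p = 0.018). Serpine2, an inhibitor of thrombin and urokinase, fell by 0.83 (SE 0.134, edgeR adjusted p = 0.020). Serpinb2, an inhibitor of plasminogen activators, and Serpinb9, which blocks granzyme B and was named after its value was seen, were higher by 1.00 and 0.72 (edgeR adjusted p = 0.13 and 0.14), and 1 higher DEG was counted without KO replicate 2, WT replicate 1 or WT replicate 2. Serpinb6a and Serpinf1, the most abundant of these 10 in CPM, stood at -0.31 and -0.44 (edgeR adjusted p = 0.32 and 0.076).

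Mamdc2 was of rank 3 per kb among 18 genes of proteins with MAM domains in WT libraries and of rank 5 in KO libraries. Of 7 other tested genes, 0 were lower and 0 higher DEGs in edgeR's test and in DESeq2's, and 2 lower and 0 higher had an unadjusted p under 0.05, beside 10.2% and 8.65% of all tested genes. Their median log2 fold change was -0.25. Nrp1 and Nrp2, receptors of semaphorins and VEGF and the most abundant of the list in CPM, stood at 0.09 and -0.30 (edgeR adjusted p = 0.71 and 0.066).

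**Figure D3:**
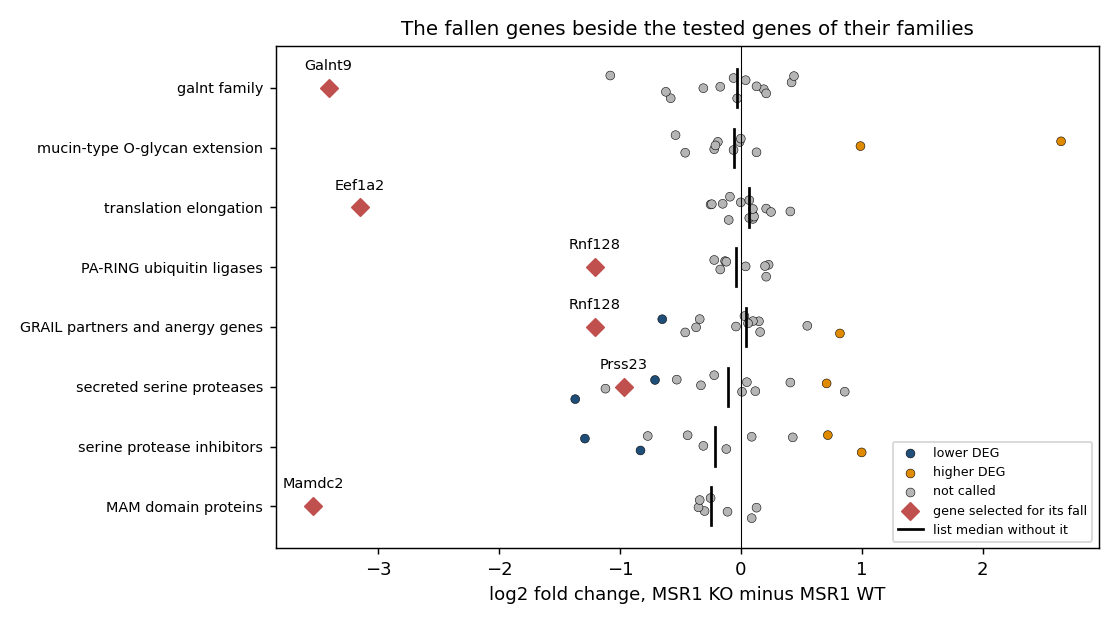
Log2 fold change (KO minus WT) of every tested gene of 8 lists, with the genes selected for their fall as diamonds, lower DEGs in blue, higher DEGs in orange and the median of the other genes as a black line. The medians lie between -0.25 and 0.07, and the fallen genes stand to the left of them.

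The genes beside Rnf128 on the X chromosome were lower as well. D330045A20Rik, a RIKEN cDNA gene on the same strand whose end lies 8.73 kb from the 5′ end of Rnf128, had 16, 13 and 16 counts in KO against 44, 46 and 49 counts in WT libraries. The groups did not overlap, and it was a lower DEG with a log2 fold change of -1.53 (SE 0.384, edgeR adjusted p = 0.064, 0.024 to 0.18 under the alternatives). Tbc1d8b, a GTPase-activating protein gene 11.9 kb beyond the 3′ end, had 486, 532 and 551 against 826, 853 and 731 counts. Its groups did not overlap either, and its log2 fold change was -0.52 (SE 0.112, edgeR adjusted p = 0.039, 0.0030 to 0.14 under the alternatives), under the fold change of a DEG. The next tested genes, Mum1l1 on the left (-0.54, SE 0.228, edgeR adjusted p = 0.25) and Morc4 on the right (0.04, SE 0.243, edgeR adjusted p = 0.95), did not pass the test. Whether reads run from one gene into the next cannot be seen in counts per gene.

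The other genes had no called neighbour next to them. Smc5 beside Mamdc2 stood at 0.03, Noc4l beside Galnt9 at 0.27, Ppdpf beside Eef1a2 at 0.32, Mto1 beside Eef1a1 at -0.10 and Fzd4 beside Prss23 at 0.09 on the log2 scale, with adjusted p-values of 0.21 to 0.90 in edgeR. Gm9493 beside Mamdc2 (0.50), Gm42596 beside Galnt9 (0.06), Col20a1 beside Eef1a2 (-0.04), Slc17a5 beside Eef1a1 (-0.01) and Gm2546 beside Prss23 (-0.74) were not called either. Within 500 kb, 1 of 7 tested genes around Mamdc2 was a lower DEG (Klf9, -0.89), 1 of 30 around Galnt9 (Ttc28, -0.73), 0 of 24 around Eef1a2, 0 of 13 around Eef1a1, 1 of 5 around Rnf128 and 0 of 8 around Prss23. Around Eef1a2, 2 genes, Helz2 (0.95) and Gm7645 (1.34), were higher DEGs. For comparison with these windows, 5.05% of all tested genes were lower and 3.59% higher DEGs. Klf9, Ttc28, Helz2 and Gm7645 were named after their values were seen.

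**Figure D4:**
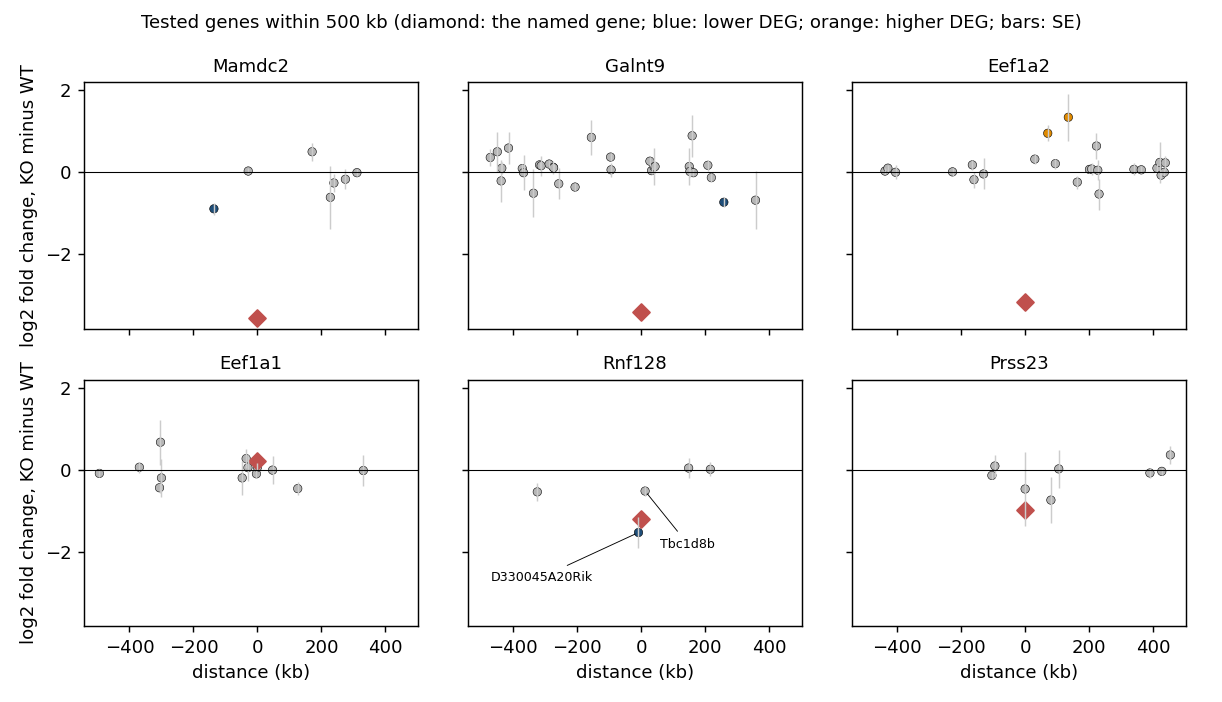
Log2 fold change (KO minus WT, bars of 1 SE) of all tested genes within 500 kb of each gene, against the distance in kb, with the gene itself as a diamond at 0. Around Rnf128, D330045A20Rik at -1.53 and Tbc1d8b at -0.52 lie beside it below 0, and the falls of Mamdc2, Galnt9 and Eef1a2 are larger than that of any other tested gene in their windows.

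Sex-linked genes were measured beside Rnf128, an X-linked gene. Xist, the RNA that silences an X chromosome in female cells, had 594 ± 62.8 CPM in WT and 419 ± 78.8 CPM in KO libraries (SD, n = 3 each). On the log2 scale the change was -0.50 (edgeR adjusted p = 0.087). Ddx3y, Uty, Kdm5d and Eif2s3y of the Y chromosome had log2 fold changes of 0.30, 0.32, 0.28 and 0.26, with adjusted p-values of 0.13 to 0.21 in edgeR. Each library held reads of both Xist and the Y-linked genes. The part of this in the level of Rnf128 was not tested.

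Prss23 shares bases with an antisense gene, and that limits its count. Prss23os (chr7:89510007-89511873 on the plus strand) covers 864 exon bases of Prss23, 22.9% of them, and 792 of 3866 stretches of 75 bases (20.5%) occur in both. Prss23os had 578, 828 and 699 counts in KO against 1509, 1641 and 30 counts in WT libraries. WT replicate 3 thus stood apart from the other two, although Prss23 itself had 2034 counts there. The strand setting of the counting was not given in the sources used here, so reads of the shared bases cannot be told apart. With the counts of both genes added, which was chosen after seeing the data, the levels were 39.5, 47.9 and 40.8 CPM in KO and 87.9, 83.3 and 49.9 CPM in WT libraries. The groups still did not overlap, and the log2 fold change was -0.79 in place of -0.97. Gm26377, a microRNA gene, covers 108 exon bases of Eef1a1 (4.33%) on the same strand, with 2648 to 3836 counts in a library.

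**Figure D5:**
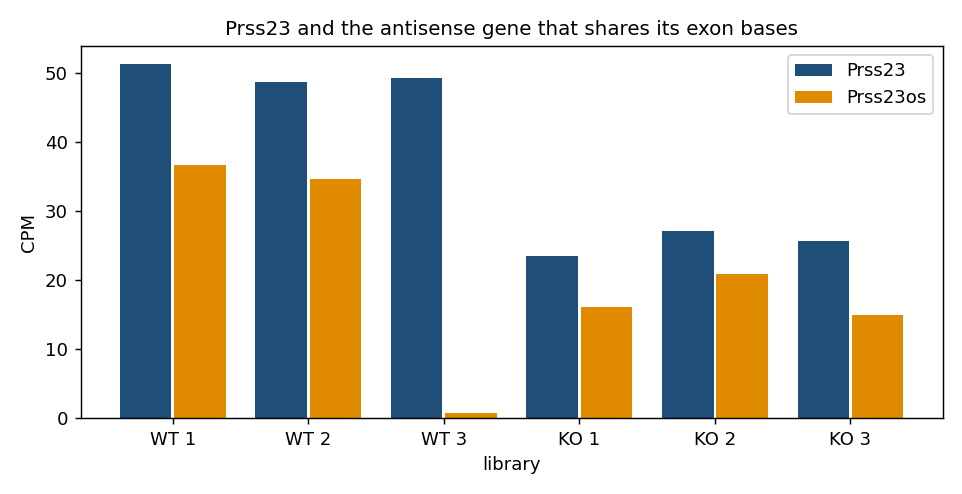
CPM of Prss23 (blue) and of the antisense gene Prss23os (orange) in each library, on a linear axis from 0. Prss23 is at 48.7 to 51.3 CPM in all 3 WT libraries, while Prss23os is at 36.6 and 34.6 CPM in WT replicates 1 and 2 and at 0.726 CPM in replicate 3.

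Genes with the most similar profile over the 6 libraries were found from log2 CPM centred on the mean of each gene, as the smallest root mean square distance among 13609 tested genes with a mean of at least 1 CPM. Because the 5 genes were selected on a large fall, neighbours with a fall of like size follow from that choice. Stac2, an adaptor of calcium channels, was nearest to Mamdc2 at 0.321 log2 units, before Eef1a2 at 0.349 and Galnt9 at 0.51. Efr3b, a plasma membrane anchor of a lipid kinase, was beside Galnt9 at 0.508 and beside Eef1a2 at 0.418. Mamdc2, Galnt9 and Eef1a2 were thus among the 3 nearest neighbours of each other. Eef1a2 and Galnt9 were 0.369 apart.

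The neighbours of Rnf128 and Prss23 lay closer. Vkorc1, the vitamin K epoxide reductase, followed Rnf128 at 0.0836 log2 units, Slc22a4, a carrier of ergothioneine, at 0.119, and Anxa1, a phospholipid-binding annexin, at 0.121. For Prss23 they were Nnmt, which methylates nicotinamide, at 0.0617, Marveld1 at 0.075 and Cyp1b1, a cytochrome P450, at 0.0795. Their own log2 fold changes were -1.16, -1.19 and -1.04 in the order of the Rnf128 neighbours and -0.95, -0.86 and -0.89 in that of Prss23.

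Within a genotype the fallen genes did not all vary alike. Deviations from the genotype mean, in log2 units, were -0.30 for Mamdc2, -0.52 for Galnt9 and -0.76 for Eef1a2 in KO replicate 1. In KO replicate 2 they were -0.02, 0.89 and 0.48 for the same genes. Rnf128 and Prss23 deviated by at most 0.17 and 0.11 in any library. With 3 libraries a genotype, these values are given as a description.

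Of 12 tested macrophage markers 0 were lower and 2 higher DEGs, where 5.05% and 3.59% of all tested genes were. The higher ones were Fcgr1 at 1.14 and Aif1 at 0.67 on the log2 scale (edgeR adjusted p = 0.018 and 0.02). Markers of other cell types were measured in the same libraries. The 16 stromal markers, such as Col1a1 and Pdgfra, summed to 2790 to 3530 CPM in WT and 2050 to 2690 CPM in KO libraries, and all 16 had reads. Of these, 5 were lower DEGs (Col3a1, Pdgfra, Pdgfrb, Cxcl12 and Acta2) and 1 (Thy1) was higher, beside 5.05% and 3.59% of all tested genes. Their median log2 fold change was -0.38. The summed level in KO was 72.9% of that in WT, and most of the sum came from Acta2, Col1a2, Col1a1 and Sparc. Single markers ranged from 43.9% (Pdgfra), 46.3% (Cxcl12) and 54.9% (Pdgfrb) to 247% (Thy1) of their WT level. Prss23 at 51.1% was in the range of these markers, and Rnf128 at 43.3% was just below the lowest of them, Pdgfra. Mamdc2, Galnt9 and Eef1a2, at 8.53% to 11.1%, were far lower than any of the 16. The part of the stromal signal in these falls was not tested.

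Neurons and muscle are the cell types in which Eef1a2 is best known. Of 8 neuron markers, Snap25, Rbfox3, Stmn2, Nefl and Syt1 had no reads in any library, and the list, with Tubb3, Map2 and Syp, summed to 8.64 to 14.6 CPM in WT and 9.05 to 10.4 CPM in KO libraries. Skeletal muscle markers summed to 0.702 to 1.47 CPM and 0.86 to 1.76 CPM. T cell markers, for Rnf128, summed to 90.6 to 141 CPM in WT and 97.6 to 146 CPM in KO libraries. Nearly all of this was Cd4, at 88.4 to 134 CPM in WT and 91.9 to 136 CPM in KO libraries, whereas Cd3e, Cd3d, Cd3g, Cd8a and Cd2 were each at 0.702 CPM or less in every library. Lck, a kinase of T cell receptor signalling, was a higher DEG of this list, with 46, 88 and 165 counts in WT and 195, 209 and 384 counts in KO libraries. Its log2 fold change was 1.45 (SE 0.43, edgeR adjusted p = 0.11). The summed ranges of these 3 lists overlapped between genotypes. Endothelial markers summed to 75.9 to 111 CPM and 110 to 133 CPM, neutrophil markers to 317 to 617 CPM and 474 to 787 CPM, B cell markers to 15.3 to 20 CPM and 19.0 to 22.5 CPM, and erythroid markers to 0.0843 to 0.412 CPM and 0.151 to 0.334 CPM. Among the endothelial markers 1 of 5 tested genes was a lower (Vwf) and 1 a higher DEG (Pecam1), beside 5.05% and 3.59% of all tested genes. The part of these cells in the falls was not tested.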

How the data were processed

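The deposited table covers 6 RNA-seq libraries, made with a VAHTS mRNA-seq V2 kit and sequenced on an Illumina instrument. The authors deposited raw counts per gene, a signal column per library (counts divided by a size factor), their own log2 fold change and their p-value and adjusted p-value. Only the counts were used, and each value column was mapped. The submitters' processing notes name fastp 0.17.1, HISAT2 2.1.0, DESeq2 1.18.1 and R 3.4.3, whereas the paper's methods name TopHat and FPKM. The counting program, strand setting and genome build were not given in the sources used here. Of 52550 identifiers, 52403 were in GENCODE M21 (GRCm38) and the positions of 49909 were identical there. Mamdc2 ends at 23448442 in GENCODE.

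Counts were filtered (filterByExpr), scaled by TMM and tested with the quasi-likelihood test of edgeR 4.0.16 (R 4.3.3), with Benjamini-Hochberg adjustment over 16402 genes. The fit was tested on simulated data. The genes and lists were chosen with earlier results of these data known. Genes named beside the 6 were Msr1, up to 3 DEGs with the largest change and the 2 most abundant genes of each list, 3 profile neighbours of each fallen gene, chromosomal neighbours, overlapping genes and the 5 steepest falls. Others, such as Galnt6, Cd83 and Serpinb9, were named outside these rules after their values were seen. Single marker genes of cell types were named as well. A gene of the list of serine protease inhibitors is not reported here and was left out of the count and median of that list. Eef1akmt4 was not matched to the table, and Galnt17 was matched by its gene identifier. Alternatives were DESeq2 1.42.0, its size factors, library size alone, other filters, the replicate block, each library left out and the longest transcript as gene length. Intervals cover counting error only. Library totals were 36143518 to 47417448 counts, and 3 counts, the limit behind a listed 0, came to 0.0835 CPM in the smallest library. The definition of a DEG is that of the study, and profiles used log2 CPM with a prior count of 2.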

Additional observations from a re-analysis of the deposited data

How the results depend on the processing

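The direction of each of the 6 genes was kept under all 12 alternatives, except that Galnt9 had too few reads to be fitted with at least 10 counts in every library. With 1 library left out the log2 fold changes were -3.73 to -3.34 for Mamdc2, -4.16 to -3.13 for Galnt9, -3.39 to -2.85 for Eef1a2, 0.16 to 0.27 for Eef1a1, -1.29 to -1.13 for Rnf128 and -1.02 to -0.91 for Prss23. Adding the Prss23os counts, chosen after seeing the data, gave -0.79 for Prss23. With the longest transcript as length, Eef1a1 had 3920 CPM per kb in MSR1 WT and 4540 in MSR1 KO, Rnf128 42.4 and 18.4, and Prss23 15.4 and 7.88, and the order of the 6 genes did not change.

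With 1 library left out, lower DEGs numbered 673 to 937 and higher DEGs 540 to 754. Genes lower at an adjusted p under 0.05, 436 in the main test, were 848 with DESeq2's Wald test, 288 without a filter, 78 with the replicate block and 53 (without MSR1 WT replicate 1) to 372 with 1 library left out. List counts of DEGs moved by at most 2 genes. Lower Galnt genes were 1 with library size alone. Higher O-glycan extension genes were 1 with no filter or with at least 10 counts, and 0 with the replicate block. Lower secreted proteases were 1 with DESeq2, with at least 10 counts and with the replicate block. With 1 library left out the counts were 0 to 1 for lower Galnt, higher O-glycan, higher elongation and lower GRAIL partner genes, 0 to 2 for higher GRAIL partner genes, 1 to 2 for lower and 0 to 1 for higher proteases, and 1 to 2 for higher protease inhibitors. The loss of Cd81 came without MSR1 WT replicate 1.

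No effect shared by same-numbered libraries was seen. Their correlations of deviations were -0.03, 0.02 and 0.00, and those of libraries with different numbers were -0.03 to 0.04. Whether same-numbered libraries were prepared together was not given in the sources used here. With the replicate block there were 759 lower and 582 higher DEGs, and Eef1a1 stayed at 0.21 on the log2 scale (edgeR adjusted p = 0.25). Tbc1d8b passed an adjusted p of 0.05 in the main test and did not with the replicate block (0.088), without a filter (0.058) or with any library left out (0.058 to 0.14). Depth limits Galnt9 most, with 4 to 15 counts in the MSR1 KO libraries.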
